A study of Bos taurus with 20 samples.

Results

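The endometrium of 8 heifers was compared between day 5 and day 10 of the estrous cycle, with 4 animals and 4 libraries on each day. The 8 libraries are those that the labels place on these days, out of 20 in the whole series. All were biopsies of endometrium, the lining of the uterus, from virgin, non-lactating Holstein heifers that were sexually mature, at least 7 months old and at least 340 kg in weight. Every animal, on both days, had its cycle synchronized by the 5-day Co-synch protocol: a GnRH analog, progesterone from an intravaginal device, and a pair of doses of the prostaglandin F2α analog Estrumate. Animals were then drawn at random for a biopsy on day 0 (estrus), 5, 10, 14 or 18. The biopsies hold several cell types, and the labels name no sorting.

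In cattle, the ruptured follicle becomes a corpus luteum, which secretes progesterone. Day 5 falls in the period when that secretion is still climbing, and day 10 in the period when it has reached its plateau. Progesterone acts on the endometrium through its nuclear receptor, and prolonged exposure is known to lower that receptor in the epithelium and to change what the uterine glands secrete into the lumen, the fluid that feeds an early embryo before it attaches. Hormone levels are not analysed here.

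The deposited values are raw counts for 27607 Ensembl cattle gene IDs, with totals of 22462099 to 24686709 counts on day 5 and 21424619 to 23200131 on day 10. Of these IDs, 5500 had no counts in any of the 8 libraries. The files do not pair IDs with gene names, and 0 IDs matched the name table used here, so the tissue label could not be set against marker genes and no promoter or protein sequence could be looked up. Genes are therefore described as sets that were defined on other days of the cycle, and 4 IDs are printed. A level is given in CPM, the usual scaling of a count to the size of its library, computed with TMM factors (trimmed mean of M values), or as log2 CPM.

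Between day 5 and day 10, 1 gene passed the test, and just under 50% of the tested genes had a fold change bounded within 2-fold. Among 16947 IDs tested, 1 (0.0059%) had an adjusted p under 0.05 and fell (edgeR quasi-likelihood test with Benjamini-Hochberg adjustment, all 20 libraries in the fit). The median log2 fold change over all tested genes was 0.0015. For 8249 genes (48.7%) the 95% interval of the change lay within a 2-fold change in either direction, and for 13901 (82.0%) within 4-fold. Among the 10483 tested genes that averaged at least 10 CPM on days 0, 14 and 18, 65.6% had an interval within 2-fold and 91.6% within 4-fold. The median standard error of a log2 fold change was 0.33 over all tested genes and 0.24 among those 10483.

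Below the threshold, more genes leaned to one day than to the other, but the balance between directions depended on the scaling. Without adjustment, 1415 genes with higher levels on day 10 (8.35% of those tested) and 831 with lower levels (4.9%) had an edgeR p under 0.05. With libraries scaled by total counts alone these were 995 and 1217, so the higher share was 44.98% instead of 63.0%. In 687 genes (4.05%) all 4 day 10 libraries lay above all 4 day 5 libraries, and in 704 (4.15%) all lay below. With total counts alone the higher part of these was 31.2% instead of 49.4%, and the median over all tested genes was −0.068. The 704 lower genes had a median log2 difference of −0.67, and 216 of them differed by at least 2-fold. The 687 higher genes had a median of 0.58, and 141 differed by at least 2-fold.

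Other tests called more genes. DESeq2 called 195 genes as higher on day 10 (1.15%) and 86 as lower (0.507%). Limma voom with quality weights called 632 as higher (3.73%) and 589 as lower (3.48%). The genes called by DESeq2 and by voom overlapped in 188, which is 66.9% of the DESeq2 calls and 15.4% of the voom calls. In 106 of the 195 higher and 56 of the 86 lower DESeq2 calls, the days did not overlap. The same held for 252 of the 632 higher and 204 of the 589 lower voom calls. Among all tested genes the shares were 4.05% upward and 4.15% downward. The calls used the same libraries, so their separation is a description.

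The spread among the day 10 animals was large beside the difference between the days. The root mean square difference of log2 CPM over all tested genes was 0.57 to 1.09 between pairs of day 5 libraries and 0.72 to 1.48 between pairs of day 10 libraries. Between a day 5 and a day 10 library it was 0.76 to 1.40. The median over the 16 pairs across days was 1.18, lower than the median of 1.38 over the 6 pairs within day 10 and higher than the 0.83 over the 6 pairs within day 5. Day 10 replicates 1 and 3 lay far from replicates 2 and 4, and nearer to each other, at 1.18. Day 10 replicates 2 and 4 were 0.72 apart, and both were nearer to day 5 replicates 2, 3 and 4 (0.76 to 0.91) than to day 10 replicates 1 and 3. On day 5, replicate 1 stood 1.05 to 1.09 from the others, which were 0.57 to 0.61 apart. In 4100 genes (24.2%) the highest and lowest day 10 libraries differed by at least 4-fold, against 1822 (10.8%) on day 5.

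**Figure D1:**
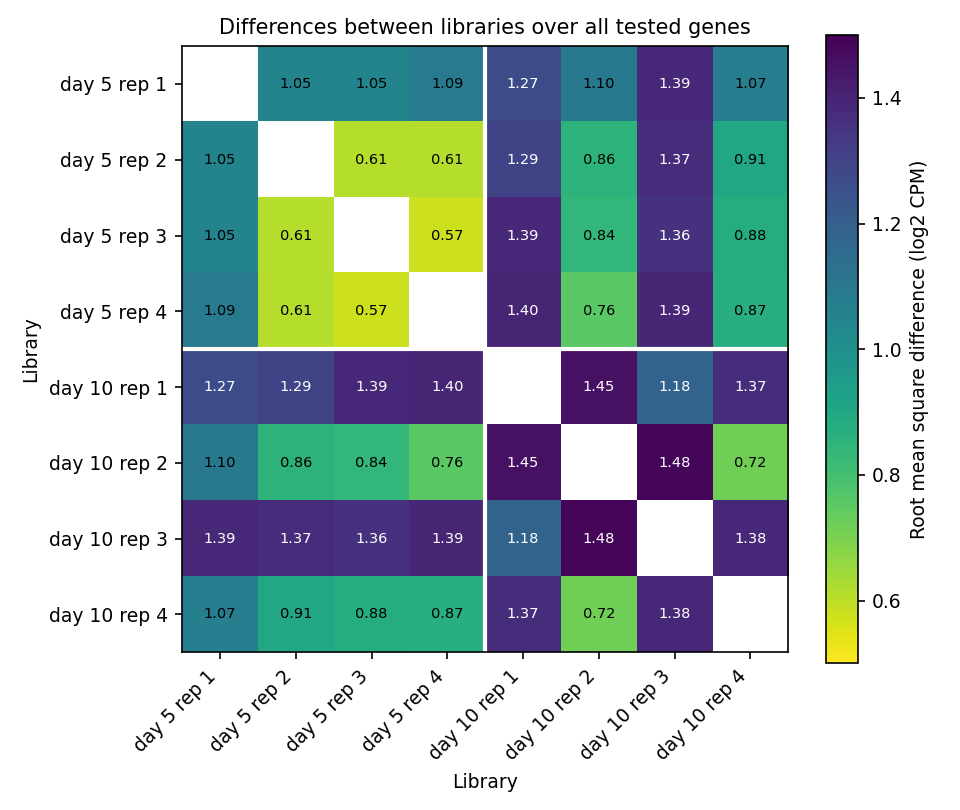
Root mean square difference in log2 CPM over 16947 tested genes for each pair of the 8 libraries, with white lines between the days. Day 5 replicates 2 to 4 are within 0.61 of each other, while day 10 replicates 1 and 3 are at least 1.18 from every other library.

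To place the step from day 5 to day 10 within the cycle, genes were grouped by how they differed between estrus and day 14, late in the luteal phase. These groups came from a fit of the day 0 and day 14 libraries alone, so no day 5 or day 10 library took part in choosing them. With an adjusted p under 0.05 by edgeR, 3075 tested genes were higher on day 14 than on day 0 and 2718 were lower. They are called the day 14-high and day 14-low genes below, and make up 18.1% and 16.04% of the tested genes.

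The day 14-high genes were mostly higher on day 10 than on day 5, and the day 14-low genes mostly lower. The median log2 fold change from day 5 to day 10 was 0.26 in the day 14-high genes, of which 73.5% had a value above 0. It was −0.28 in the day 14-low genes, of which 25.2% were above 0. Among all tested genes the median was 0.0015 and 50.2% were above 0. With the requirement of a 4-fold or larger difference between day 0 and day 14, the medians were 0.63 over 483 high genes and −0.81 over 416 low genes. Of the 3075 day 14-high genes 0 passed the edgeR test of the step in the higher direction, and of the 2718 day 14-low genes 1 passed in the lower direction. In bulk tissue, fewer cells of a type and less RNA per cell cannot be told apart for any of these genes.

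**Figure D2:**
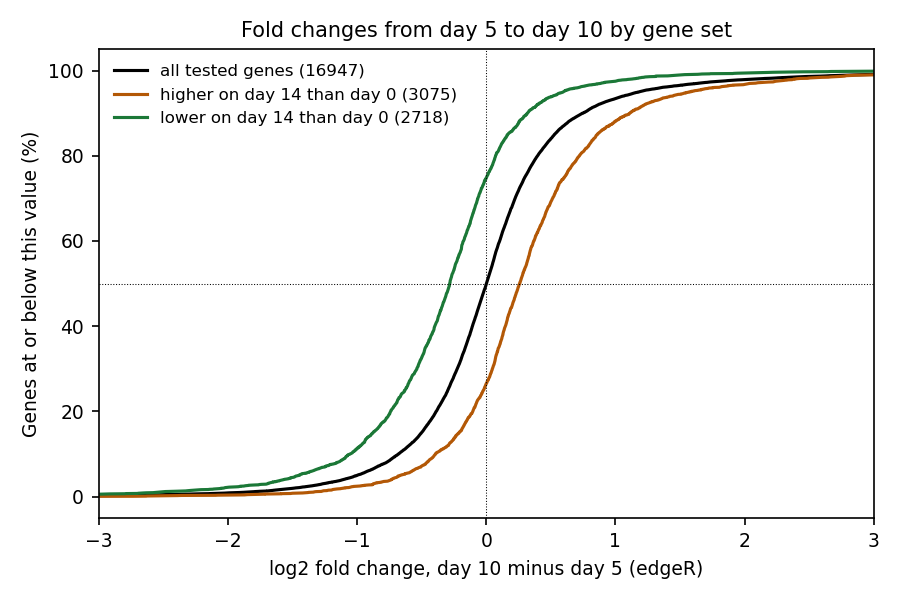
Cumulative share of genes (vertical axis, %) at or below each log2 fold change from day 5 to day 10 (horizontal axis, drawn from −3 to 3), for all tested genes and for the genes higher or lower on day 14 than on day 0. The curve of the day 14-high genes lies to the right of all genes, with a median of 0.26, and that of the day 14-low genes to the left, with a median of −0.28.

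Single genes of these groups showed the same lean below the threshold. An unadjusted edgeR p under 0.05 with a higher level on day 10 was seen in 541 day 14-high genes (17.6%, against 8.35% of all tested genes) and 69 day 14-low genes (2.54%). With a lower level on day 10 it was seen in 331 day 14-low genes (12.2%, against 4.9%) and in 40 day 14-high genes (1.30%). Complete separation of the days upward was seen in 304 day 14-high genes (9.89%, against 4.05% of all tested genes) and 18 day 14-low genes (0.662%). Downward it was seen in 346 day 14-low genes (12.7%, against 4.15%) and 15 day 14-high genes (0.488%). Seen from the other side, 44.3% of the 687 genes with all day 10 libraries above all day 5 libraries were day 14-high and 2.62% were day 14-low. Of the 704 with all day 10 libraries below, 49.1% were day 14-low and 2.13% day 14-high. Among all tested genes 18.1% were day 14-high and 16.04% day 14-low. The 195 higher DESeq2 calls held 83 day 14-high (42.6%) and 5 day 14-low genes (2.56%). The 86 lower DESeq2 calls held 30 day 14-low (34.9%) and 5 day 14-high genes (5.81%). The voom calls held 349 day 14-high (55.2%) and 12 day 14-low genes (1.90%) among 632 higher. Among 589 lower voom calls were 220 day 14-low (37.4%) and 38 day 14-high genes (6.45%).

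The mean level of the day 14-low genes separated the days completely. It was 4.34, 4.42, 4.63 and 4.44 log2 CPM in day 5 replicates 1 to 4, and 3.76, 4.20, 4.16 and 4.10 in day 10 replicates 1 to 4. Every day 10 library was below every day 5 library, also with RLE factors or total counts alone. The means of 4.46 ± 0.12 for day 5 and 4.05 ± 0.20 for day 10 (SD, n = 4 each) gave a difference of −0.40. The difference was −0.31 without day 10 replicates 1 and 3, and −0.35 without these and day 5 replicate 1.

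The mean level of the day 14-high genes overlapped between the days because of 1 library. It was 4.17, 4.27, 4.14 and 4.27 log2 CPM in day 5 replicates 1 to 4, and 4.59, 4.40, 4.13 and 4.60 in day 10 replicates 1 to 4. Day 10 replicate 3 was just below the lowest day 5 library, and the other 3 day 10 libraries were above all of day 5. Day 10 was thus the higher in 12 of 16 pairs of libraries across days, also with total counts alone. With RLE factors it was the higher in 14 of 16, so replicate 3 was then not below all of day 5. The means were 4.22 ± 0.07 and 4.43 ± 0.22 (SD, n = 4 each), a difference of 0.22. The difference was 0.32 without day 10 replicate 3, 0.16 without day 10 replicate 1 or replicate 4, and 0.15 with total counts alone. It was 0.29 without day 10 replicates 1 and 3 and 0.27 without these and day 5 replicate 1.

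On a scale that sets the mean of day 0 at 0% and that of day 14 at 100%, the mean of each group was past the middle of its path by day 5. The day 14-high genes went from 61.6% ± 5.44 on day 5 to 79.3% ± 18.0 on day 10 (SD, n = 4 each). The day 14-low genes went from 58.7% ± 10.1 on day 5 to 91.7% ± 16.4 on day 10 (SD, n = 4 each). Day 0 and day 14 chose the genes, so the ends of the scale are fixed by that choice, while days 5 and 10 are not. The gain from day 5 to day 10 was 17.7 percentage points in the high genes and 33.0 in the low genes. The gap between these gains rested largely on day 10 replicates 1 and 3. Without them the differences in mean log2 CPM were of similar size, 0.29 in the high and −0.31 in the low genes. With all libraries they were 0.22 and −0.40.

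Individual day 10 animals held different places on the 2 paths. Replicate 1 was at 92.6% in the day 14-high genes and at 116% in the day 14-low genes, so its low genes lay below the day 14 mean. Replicate 3 was at 54.7% in the high genes, with TMM factors just under the day 5 range of 55.8% to 66.5%. In the low genes it was at 82.9%, beyond the day 5 range of 44.5% to 68.3%. Replicates 2 and 4 were at 77.0% and 93.0% in the high genes and at 80.1% and 88.0% in the low genes. In the genes with at least a 4-fold difference between day 0 and day 14, replicate 3 stood at 51.8% in the high and 78.6% in the low genes, and replicate 1 at 89.5% and 107%.

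**Figure D3:**
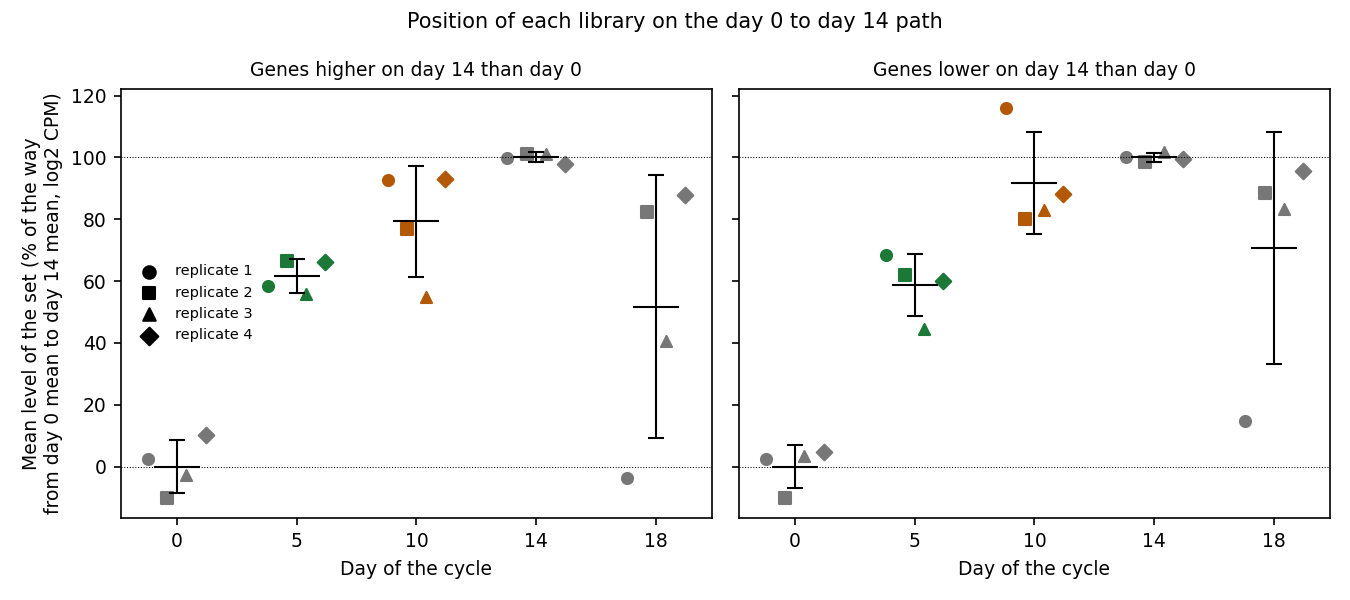
Mean log2 CPM of the day 14-high genes (left) and day 14-low genes (right) in each of the 20 libraries, as the percentage of the way from the day 0 mean to the day 14 mean, by day of the cycle. Points are libraries, bars the mean and SD of 4. In the right panel the day 10 libraries (80.1% to 116%) are all above the day 5 libraries (44.5% to 68.3%), and in the left panel day 10 replicate 3 is at 54.7%.

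Gene by gene, more members crossed the middle of their path between the 2 days than crossed back. Of the 3075 day 14-high genes, 1400 (45.5%) were at or past 50% of the way, on average over the animals, on both days, and 891 (29.0%) only on day 10. A further 229 (7.45%) were past it only on day 5, and 555 (18.05%) on neither day. Of the 2718 day 14-low genes, 1458 (53.6%) were past it on both days, 767 (28.2%) only on day 10, 149 (5.48%) only on day 5 and 344 (12.7%) on neither. The median gene stood at 53.6% on day 5 and 76.9% on day 10 in the high group, and at 60.1% and 86.8% in the low group. In single libraries, 47.9% to 56.3% of the day 14-high genes were past the middle on day 5. On day 10 these were 69.1%, 68.9%, 49.9% and 82.9% in replicates 1 to 4. For the day 14-low genes the shares were 48.6% to 60.7% on day 5, and 75.2%, 78.5%, 63.1% and 86.4% in day 10 replicates 1 to 4.

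Day 10 replicates 1 and 3 also differed from day 5 in many genes outside these groups. Replicate 1 had 545 genes at least 4-fold above the day 5 mean and 1143 at least 4-fold below it, and replicate 3 had 714 and 974. In replicates 2 and 4 the numbers were 184 and 249, and 219 and 266. Of the genes 4-fold above day 5, 40.4% were day 14-high in replicate 1, 32.6% in replicate 2, 22.8% in replicate 3 and 41.6% in replicate 4, against 18.1% of all tested genes. Of the genes 4-fold below day 5, 33.2%, 15.3%, 23.6% and 33.5% were day 14-low in replicates 1 to 4, against 16.04% of all tested genes. In replicate 3, of the 974 genes 4-fold below day 5, 222 were day 14-high (22.8%) and 230 were day 14-low (23.6%). The part of cell composition or RNA quality in these libraries was not tested.

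A smaller group came from a fit of the day 0 and day 18 libraries alone, in which 34 tested genes were lower and 3 higher on day 18. The 34 had a median log2 fold change of −0.41 from day 5 to day 10, and 17.6% of them were above 0. The median was −0.24 without day 10 replicate 1 and −0.16 without day 10 replicates 1 and 3. Without adjustment, 8 of the 34 (23.5%, against 4.9% of all tested genes) had an edgeR p under 0.05 in the lower direction and 1 (2.94%, against 8.35%) in the higher. Their mean level went from 4.09 ± 0.41 log2 CPM (day 5) to 3.51 ± 0.41 (day 10), beside 3.60 ± 0.076 for day 14 and 3.67 ± 0.087 for day 18 (SD, n = 4 each). The difference of −0.58 was −0.38 without day 10 replicate 1 and −0.31 without day 10 replicates 1 and 3. The days overlapped: day 5 replicate 1, at 3.49, was below day 10 replicates 2, 3 and 4, at 3.77, 3.55 and 3.79. Complete separation downward was seen in 2 of the 34 (5.88%, against 4.15% of all tested genes). All 3 higher genes had positive fold changes from day 5 to day 10, and 0 of them had an unadjusted edgeR p under 0.05. Between days 14 and 18, 1 gene passed in a fit of those days, and it stood at 0.78 from day 5 to day 10 on the log2 scale.

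The 4 printed IDs had the smallest edgeR p in each direction. They were taken from the 577 higher and 557 lower IDs whose libraries did not overlap between the days and whose mean was 5 CPM or more. Since non-overlap and p chose them, their separation is a description.

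ENSBTAG00000015685 was the gene that passed. Its level was 11.1, 25.6, 33.3 and 22.6 CPM in day 5 replicates 1 to 4 and 2.46, 3.17, 3.86 and 2.13 CPM in day 10 replicates 1 to 4. The days were far apart, and the lowest day 5 library was replicate 1. The gene fell by 2.99 on the log2 scale (95% interval −3.91 to −2.08, SE 0.43, edgeR adjusted p = 0.0371), and was 7.96-fold higher on day 5. Day 10 was near the level of day 14, at 2.90 ± 0.771 against 2.20 ± 0.728 CPM (SD, n = 4 each), while day 0 was at 56.8 ± 5.66 CPM. In the fit of days 0 and 14 alone its log2 fold change was −4.67 (SE 0.24, edgeR adjusted p = 2.02e-05, 4 libraries a day). Leaving out 1 library ended the call in 6 of 8 cases, with adjusted p of 0.136, 0.168 and 0.113 without day 5 replicate 2, 3 or 4 and 0.273, 0.0603 and 0.183 without day 10 replicate 1, 2 or 4. Over its 19 alternatives the adjusted p ranged from 5.91e-09 to 0.273 and the log2 fold change from −3.34 to −2.77.

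ENSBTAG00000007490 was the other printed ID with lower values on day 10. Its level was 682, 758, 753 and 888 CPM in day 5 replicates 1 to 4 and 334, 578, 386 and 282 CPM in day 10 replicates 1 to 4. Day 10 replicate 2 was the nearest to day 5. The log2 fold change was −0.96 (95% interval −1.40 to −0.53, SE 0.21, edgeR adjusted p = 0.187), which did not pass. Over its 19 alternatives the adjusted p ranged from 0.00507 to 0.540. Day 5 had the highest mean of the cycle, 770.1 ± 85.9 CPM. Day 0 was at 423 ± 45.8, day 14 at 263 ± 12.4 and day 18 at 448 ± 109.9 (SD, n = 4 each). The ID was thus high on day 5 and lowest on day 14. ENSBTAG00000007490 is 1 of the day 14-low genes, at −0.66 from day 0 to day 14 on the log2 scale (SE 0.12, edgeR adjusted p = 0.00263, 4 libraries a day). Unlike the mean of that group, its day 5 level was above that of day 0.

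ENSBTAG00000033669 was at 53.5, 41.4, 40.3 and 44.8 CPM in day 5 replicates 1 to 4 and at 137, 70.1, 101 and 93.8 CPM in day 10 replicates 1 to 4. Its log2 fold change was 1.16 (95% interval 0.69 to 1.62, SE 0.22, edgeR adjusted p = 0.144), which did not pass, and the adjusted p ranged from 0.00111 to 0.540 over its 19 alternatives. The day 10 mean of 100.4 ± 27.5 CPM was near that of day 14, 98.9 ± 19.6, while day 5, at 44.99 ± 5.96, was nearer to day 0, at 34.5 ± 4.11 (SD, n = 4 each). ENSBTAG00000033669 is 1 of the day 14-high genes, with a log2 fold change of 1.54 from day 0 to day 14 (SE 0.16, edgeR adjusted p = 0.000276, 4 libraries a day).

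ENSBTAG00000001474 is a gene of low level, with 59 to 95 counts in the day 5 libraries and 118 to 218 on day 10. It was at 4.09, 2.35, 2.42 and 2.43 CPM in day 5 replicates 1 to 4 and at 5.28, 5.62, 10.8 and 7.36 CPM in day 10 replicates 1 to 4. Its log2 fold change was 1.36 (95% interval 0.78 to 1.94, SE 0.28, edgeR adjusted p = 0.187), which did not pass, and the adjusted p ranged from 0.000845 to 0.540 over its 19 alternatives. The mean on day 5, 2.82 ± 0.847 CPM, was the lowest of the cycle, below 4.71 ± 0.343 on day 0, and the means of days 10, 14 and 18 were 7.26 ± 2.52, 7.14 ± 1.72 and 7.14 ± 1.55 CPM (SD, n = 4 each).

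**Figure D4:**
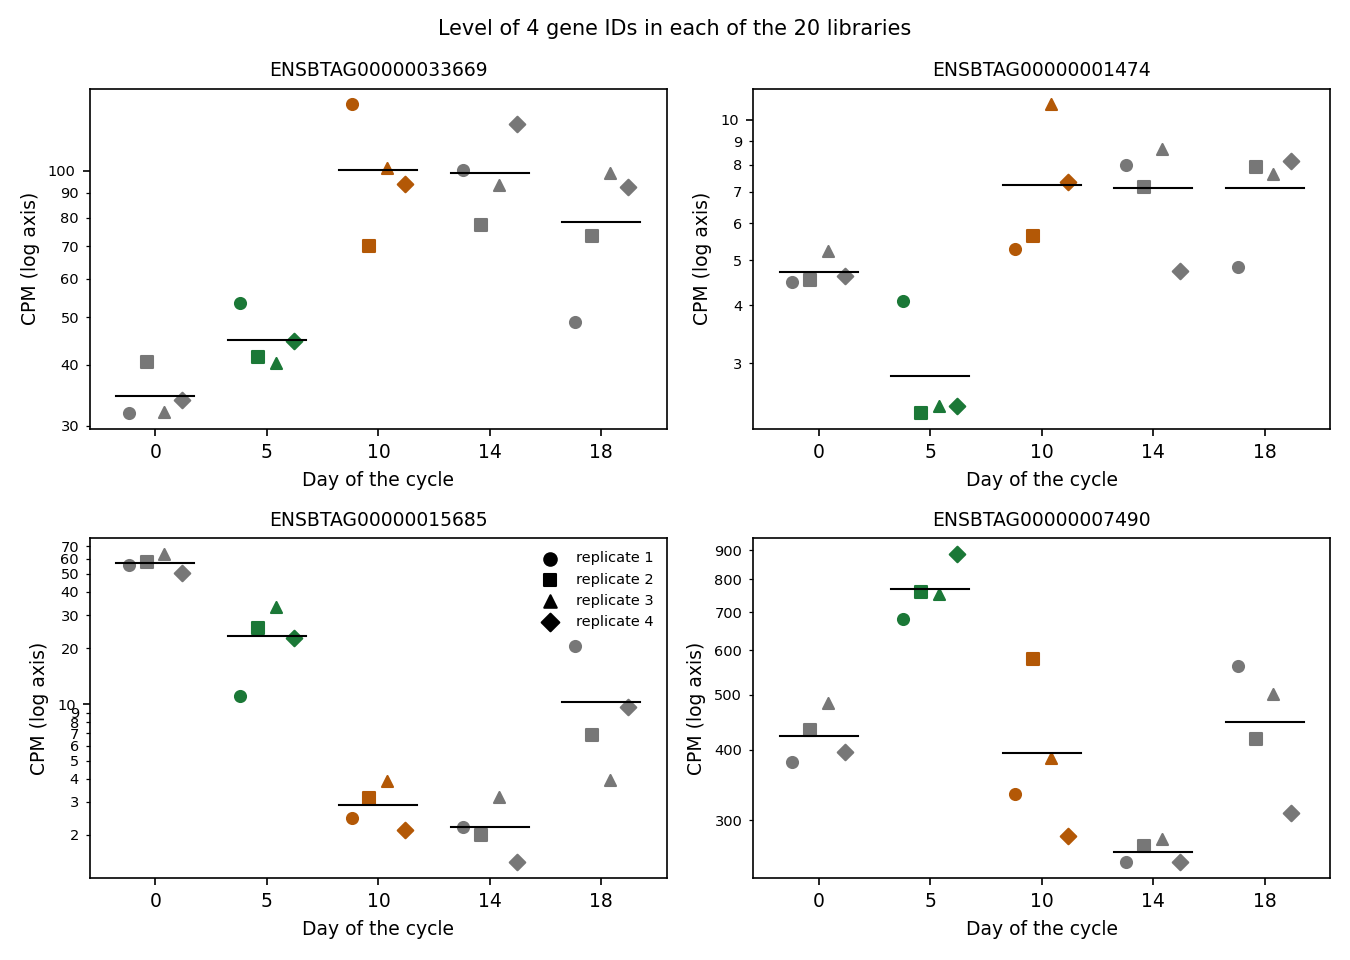
Level of the 4 printed IDs in each of the 20 libraries, in CPM on a log axis, by day of the cycle, with a line at the arithmetic mean of 4 libraries. For all 4 IDs the day 5 and day 10 points do not overlap, and for ENSBTAG00000015685 the day 10 mean of 2.90 CPM is near the day 14 mean of 2.20 CPM.

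The share of counts taken by the most abundant transcripts varied more among the day 10 animals than it differed between the days. In each library, its 50 most abundant IDs together took 13.3%, 13.1%, 14.8% and 12.4% in day 5 replicates 1 to 4 and 16.4%, 12.1%, 18.9% and 11.5% in day 10 replicates 1 to 4. The 2 highest values were day 10 replicates 1 and 3, and the 2 lowest were day 10 replicates 2 and 4. The means of 13.4% ± 1.03 and 14.7% ± 3.53 (SD, n = 4 each) differed by 1.31 percentage points (exact permutation test, two-sided, p = 0.571, where 4 against 4 cannot go below 0.0286). Without day 10 replicate 3 the difference was −0.0920 points (exact permutation p = 0.914). Without replicates 1 and 3 it was −1.60 points (exact permutation p = 0.2, where the lowest possible p is above that of 4 against 4). Both removals take out the highest values, so they lower the day 10 mean by choice.

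The number of called genes rested on single libraries. Without day 5 replicate 1 the edgeR count was 34, of which 10 were higher and 24 lower on day 10, and 30 differed by at least 2-fold. Of the 10 higher genes 7 were day 14-high and 0 day 14-low, and of the 24 lower genes 8 were day 14-low and 3 day 14-high. Without day 10 replicate 3 it was 8, with 7 higher (5 of them day 14-high) and 1 lower. Without day 10 replicates 1 and 3 the edgeR count was 6, all higher on day 10 and 4 of them day 14-high. Without these and day 5 replicate 1 it was 11, with 6 higher and 5 lower. All these lists are short, and among all tested genes 18.1% were day 14-high and 16.04% day 14-low. Leaving out any of the other 6 libraries gave an edgeR count of 0. The genes with an unadjusted p under 0.05 then numbered 1593, 1548 and 1883 without day 5 replicates 2, 3 and 4 in turn, and 1982, 2803 and 2346 without day 10 replicates 1, 2 and 4 in turn. DESeq2 and voom were run with all 20 libraries only, where they called 281 and 1221 genes.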

How the data were processed

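The authors deposited 1 file of counts per library, with Ensembl IDs per the file headers; the whole-number values, with sums that differ between libraries, were read as raw counts. Libraries of poly(A) RNA came from a TruSeq stranded kit, according to the labels. FastQC, STAR and edgeR are listed, without versions, among the submitters' processing tools. Not given in the sources used here are the genome build, annotation, counter and strand setting, so antisense partners and near-identical copies may share reads. Totals were 21424619 to 24686709 counts per library on days 5 and 10, and intervals of fold changes were wider for rarer genes. Libraries of a day came from separate animals, and their counts differed beyond sampling noise, with chi-square per degree of freedom of 43.0 to 398.

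Tests on the counts used edgeR 4.0.16 in R 4.3.3 (filterByExpr, TMM factors, robust quasi-likelihood fit of all 20 libraries with 1 mean per day). The common biological coefficient of variation was 0.445. The SE was the log2 fold change divided by the square root of F. Log2 CPM used a prior count of 2, and p-values are two-sided. Gene sets used adjusted p under 0.05 in fits of 2 other days alone. Without names, 34 planned symbol lists and the checks of cell type markers were not run, and the rule for named genes was reduced to 2 IDs that were higher and 2 that were lower, by smallest p among IDs of at least 5 CPM without overlap. Members, sets and rules were chosen with earlier results of these data known. Alternatives were RLE factors, total counts alone, other low-count filters, DESeq2 1.42.0, limma 3.58.1 voom, no robust option, a replicate block, only the 8 libraries, a 2-fold threshold and left-out libraries. The edgeR test was checked on simulated data. There it found 73% of 4-fold and 28% of 2-fold changes placed in IDs of at least 5 CPM. Of its 106 calls, 5 were false. Figures used matplotlib 3.10.9.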

Additional observations from a re-analysis of the deposited data

Results flagged for a closer look

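Of 26 groups of 4 values examined for a library far from the other 3, 3 had a gap to the nearest other value that was too large a share of the range by Dixon's 95% critical value, where chance gives about 1 in 20. The 50 IDs of highest mean on days 0, 14 and 18 had a mean level of 10.33 log2 CPM in day 10 replicate 1, and of 10.57 to 10.61 in the remaining day 10 libraries. The tested IDs under 1 CPM on those days had a mean of −1.08 log2 CPM in day 5 replicate 1, and of −0.80 to −0.74 in the remaining day 5 libraries. Some of these IDs may have passed the low-count filter through day 5 or day 10 itself. ENSBTAG00000001474 was at 4.09 CPM in day 5 replicate 1, and at 2.35 to 2.43 CPM in replicates 2 to 4 of that day; without that library its log2 fold change was 1.59 instead of 1.36 and its edgeR adjusted p 0.0318, within a range of 0.000845 to 0.540 over its 19 alternatives.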

How the results depend on the processing

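The count of 1 gene became 281 with DESeq2, 1221 with voom, and 0 with only the 8 libraries or against a 2-fold change; it was 0 to 34 with 1 library left out, 6 without day 10 replicates 1 and 3, and 11 without these and day 5 replicate 1. With the replicate number as a block it was 0; same-numbered deviations correlated at 0.0063 to 0.235 and 3 of 8 libraries correlated best with their own number, so the numbers were not taken as pairs. The median fold changes of the day 14-high and day 14-low genes kept their signs under all 20 alternatives each, at 0.19 to 0.63 and −0.81 to −0.22; the requirement of 4-fold gave the ends 0.63 and −0.81, and differences in level of 0.38 and −0.83. The median of the 50 most abundant IDs, 0.15, was −0.20 with voom, −0.021 to 0.27 with 1 library left out, −0.26 without day 10 replicates 1 and 3 and −0.23 without day 5 replicate 1 as well. The median of IDs of 10 to 100 CPM, 0.0055, was −0.064 with total counts alone; their difference in level, −0.034, was −0.11 with total counts, 0.0033 without day 10 replicates 1 and 3 and 0.0053 without the 3 libraries. For IDs of 100 CPM or more, −0.011 became −0.085, 0.071 and 0.088 in the same order. The share of the 50 most abundant IDs, 1.31 points, was −0.0920 to 2.39 with 1 library left out, −1.60 without day 10 replicates 1 and 3 and −1.64 without the 3. The cause was not tested. At this depth, 4.58% of tested IDs under 1 CPM had an interval within 2-fold, against 66.2% at 100 CPM or more.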

Other observations

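Abundance classes, set by the mean on days 0, 14 and 18, had median differences near 0 from day 5 to day 10. The low-count filter used all 20 libraries, so an ID under 1 CPM on those days could pass it through day 5 or day 10. Of 12575 IDs in that class, 1921 were tested. The median log2 fold change was −0.037 over 1921 tested IDs under 1 CPM, −0.041 over 4543 of 1 to 10 CPM, 0.0055 over 8169 of 10 to 100 CPM and 0.056 over 2314 of 100 CPM or more. The mean difference in log2 CPM, which averages logs over libraries and IDs, was −0.10, −0.11, −0.034 and −0.011 in the same order. It is a different measure from the edgeR fold change. In the upper 2 classes the 2 measures had opposite signs, by amounts too small to hold across settings. At 100 CPM or more the median was −0.012 with total counts alone, and the mean difference was 0.0054, 0.018 and 0.015 without day 5 replicate 1, day 10 replicate 1 or day 10 replicate 3. Complete separation of the days was seen more often among abundant IDs: upward in 1.93% of IDs under 1 CPM, 2.71%, 4.50% and then 6.87% of those at 100 CPM or more, and downward in 2.29%, 3.65%, 4.44% and 5.66%. The share whose 95% interval lay within 2-fold also grew with abundance, from 4.58% to 66.2%.

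The 50 IDs of highest mean on days 0, 14 and 18 had a median edgeR log2 fold change of 0.15. The difference in their mean log2 CPM was −0.19, a different measure, which averages logs over libraries and IDs. It is a mean over IDs, where the edgeR value is a median. The edgeR fold changes were skewed: 58% were above 0, and the quartiles were −0.62 and 0.35. The edgeR median was −0.021 without day 10 replicate 3, and the median with voom was −0.20. Of these 50, 8 (16%, against 4.15% of all tested IDs) were lower in all day 10 libraries than in all day 5 libraries. Among the 8, 5 differed by at least 2-fold. Only 1 (2%, against 4.05%) was higher in all. In the class of 100 CPM or more the shares were 5.66% lower and 6.87% higher. By the edgeR test 0 of the 50 passed. An unadjusted p under 0.05 was seen in 2 higher (4.0%, against 8.35% of all tested IDs) and 3 lower (6.0%, against 4.9%). DESeq2 called 0 of them, against 1.15% of all tested IDs as higher and 0.507% as lower. Voom called 2 as higher (4.0%, against 3.73% of all tested IDs) and 1 as lower (against 3.48%). IDs at 1 CPM or more numbered 14636 to 14992 in the day 5 libraries and 14456 to 14863 in the day 10 libraries, which overlap.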
